A study of Mus musculus with 6 samples.

Results

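The genes described here encode 10 proteins of the extracellular matrix or of the fibroblast surface. They are the matricellular proteins and glycoproteins Postn, Sparc, Fn1 and Tnc, the small leucine-rich proteoglycans Dcn and Lum, the lysyl oxidases Lox, Loxl1 and Loxl2, and the surface glycoprotein Thy1. All probe sets whose platform annotation names 1 of these symbols alone were taken, which gave 17 of the 45101 probe sets of the array, for 9 of the 10 genes. Loxl2 had no probe set of its own. Of the 17, 13 were bright enough to be tested, with at least 1 for each of the 9 genes.

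Bulbs of growing hair follicles were taken from mice on postnatal day 9, and their RNA was measured on 6 one-colour arrays. In emN1 bulbs (2 arrays), from skin in which the gene had been deleted in the embryo, functional Notch1 is absent. In anN1 bulbs (2 arrays), from an area deleted only in anagen, the growth phase of the follicle, functional Notch1 is still present. Wild-type bulbs (2 arrays) were the other control, and the study used anN1 and wild-type together as controls. The sources used here give neither strain, sex and the driver of the deletion nor how many animals stand behind an array. Hybridisation took place in 2 sets, the first with 1 emN1 and 1 anN1 array and the second with the other 4. Precision is limited by having 2 arrays a group.

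The matrix of the follicle is made mainly by fibroblasts, in the dermal papilla inside the bulb and in the sheath around it, while the bulb keratinocytes build the shaft. Fibronectin fibrils form a first scaffold on which collagen is laid down. Matricellular proteins such as periostin, SPARC and tenascin-C bind this scaffold and tune adhesion and collagen assembly. Small leucine-rich proteoglycans coat collagen fibrils and set their width and spacing, and lysyl oxidases oxidise lysines so that collagen and elastin become cross-linked.

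Notch1 itself was lowest in the emN1 arrays. Its brighter probe set had 6498 and 6292 signal units in emN1, against 15077 and 12527 in anN1 and 23750 and 34070 in wild-type. A signal unit is the authors' scaled intensity of a probe set. A probe set for the Cre recombinase on the array read 395 to 515 in the emN1 and anN1 arrays and 62.4 to 79.0 in the wild-type arrays. Background was taken as 112, the 95th percentile of 20 bacterial control probe sets without target. The 9 measured marker genes of bulb keratinocytes (among them Msx2, Hoxc13 and Krt71) lay above it on every array, and none of them passed the test between emN1 and controls. The ratio of the 3' to the 5' actin control probe set, a sign of RNA integrity, was 4.595 to 5.642 in the first array set and 2.39 to 2.71 in the second.

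Promoters of 3 of the genes (Postn, Tnc and Sparc, in 5 windows) were in the RefSeq table used, which covers 250 bases before to 50 bases after a start site on GRCm38.p6. A window each is shown for Postn, which had the largest difference among the genes that rose, and for Tnc, the gene of the 3 whose windows held the motif GTGGGAA, the core that the Notch partner RBPJ binds. Capitals mark GTGGGAA and TATAAA, searched on both strands. They do not overlap each other.
Postn, chr3:54360857-54361156, plus strand: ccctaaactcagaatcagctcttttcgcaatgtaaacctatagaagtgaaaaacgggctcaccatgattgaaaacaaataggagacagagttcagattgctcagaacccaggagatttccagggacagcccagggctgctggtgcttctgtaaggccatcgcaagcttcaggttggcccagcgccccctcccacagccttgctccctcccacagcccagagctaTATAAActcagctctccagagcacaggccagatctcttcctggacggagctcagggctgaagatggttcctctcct
Tnc, chr4:64046887-64047186, minus strand: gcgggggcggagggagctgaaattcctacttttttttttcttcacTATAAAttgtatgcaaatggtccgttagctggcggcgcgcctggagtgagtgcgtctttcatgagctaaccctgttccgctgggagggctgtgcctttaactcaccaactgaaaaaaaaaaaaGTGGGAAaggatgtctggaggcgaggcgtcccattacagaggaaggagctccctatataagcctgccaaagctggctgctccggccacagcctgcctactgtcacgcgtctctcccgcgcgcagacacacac
The Postn match to TATAAA begins 26 bases before this start site, and the Tnc match to GTGGGAA begins 82 bases before its own. GTGGGAA was in 6.38% of the 32851 promoter windows of the table and TATAAA in 13.6%. The windows of Sparc and of a second Postn start held neither, and the other Tnc window overlaps the one shown and holds the same matches. A match describes these letters and is not evidence of binding.

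Matrix genes of this group were higher in emN1 bulbs. Of the 13 probe sets tested, 7 rose, none fell and 6 did not pass, by limma with a Benjamini-Hochberg adjusted p under 0.05. The 7 belong to 7 genes: Postn, Sparc, Fn1, Lum, Lox, Loxl1 and Thy1. Over all 27022 probe sets tested, 3.77% passed in either direction, 2.41% being higher and 1.37% lower. Taking the brightest probe set of each of the 9 genes, 6 rose and 3 (Sparc, Tnc and Dcn) did not pass, against 3.58% higher among all 12611 genes. The median log2 difference of the 9 was 1.28, beside -0.02 over all genes. These calls rest on few arrays. None of the 13 passed without emN1 replicate 1 (0.588% of all probe sets did) or without emN1 replicate 2 (0.0037% of all), and without anN1 replicate 1 only Thy1 passed (0.711% of all). Leaving out emN1 replicate 1 or anN1 replicate 1 gave the same differences, as the array set term takes up the array left in the first set. Both fits then rest on the second array set and are not separate checks. A fit without the array set term called 2 of the 13 (1.06% of all), and one without the intensity trend of the variance called 0, as it did among all. In the arrays of whole bulbs, a change in RNA per cell and a change in the number of cells that carry it cannot be told apart.

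**Figure D1:**
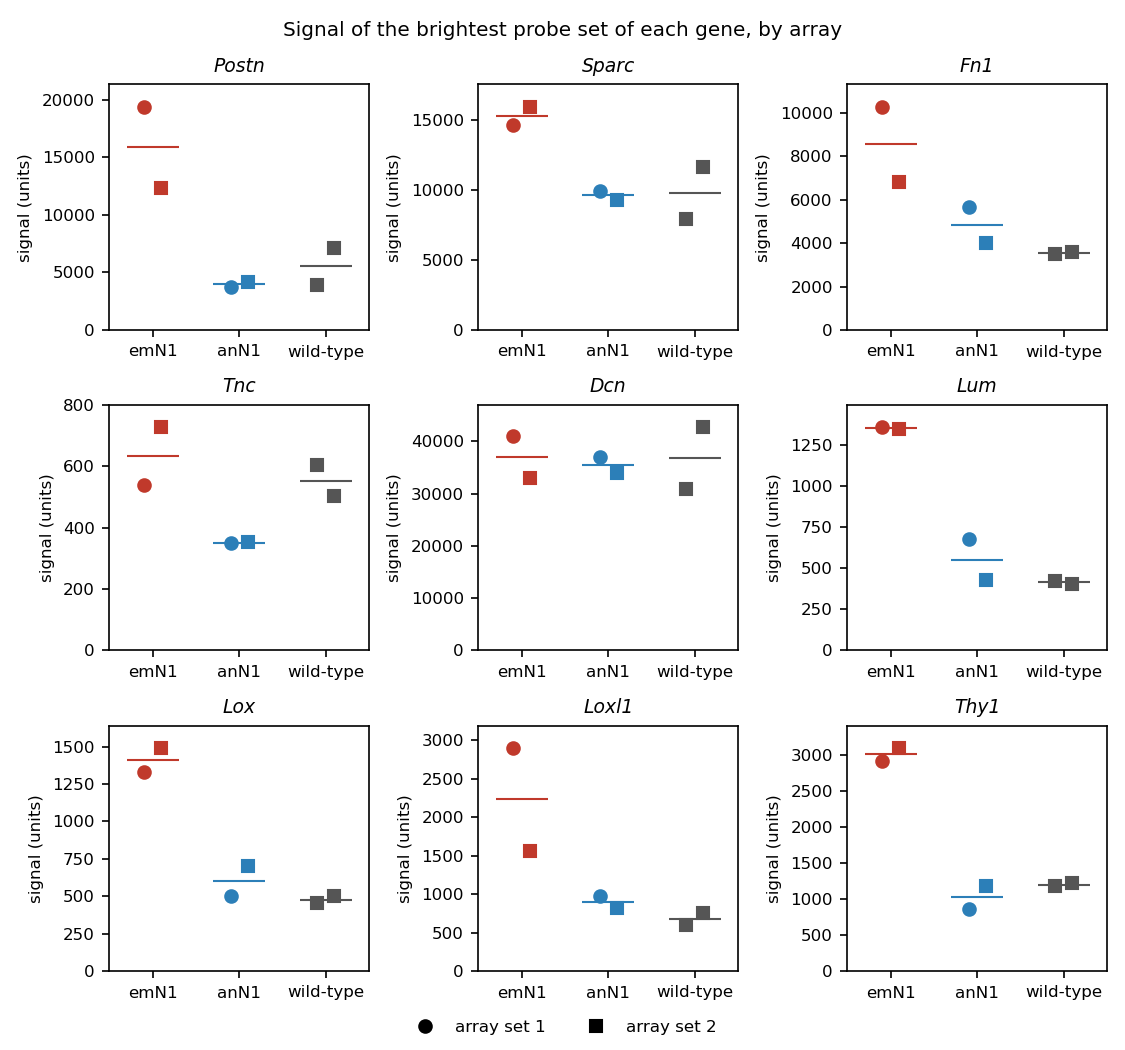
Signal of the brightest probe set of each of 9 genes, in signal units from 0, for emN1, anN1 and wild-type bulbs. Each point is 1 array (circle, array set 1; square, array set 2) and the line is the mean of the 2 arrays. Both emN1 points lie above all 4 controls in 7 of the 9 panels, and in the Tnc and Dcn panels they do not.

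Both emN1 arrays lay above all 4 controls in 9 of the 13 probe sets, which holds for 9.99% of all probe sets tested, and below all 4 in none, against 9.33% of all. In the first array set the 9 brightest probe sets differed between emN1 and anN1 by a median of 0.99 log2 units, with 9 of 9 above 0. In the second set the median was 1.00, with 8 of 9 above 0, Dcn being the exception at -0.04. Of the 13 probe sets, 10 were above anN1 in both array sets, as were 27.5% of all probe sets tested. The direction and the middle of the difference were thus close in both sets, with 1 array a group in each.

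Postn encodes periostin, which binds collagen and fibronectin and promotes collagen cross-linking. Its probe set had 19366 and 12344 signal units in emN1, against 3762 and 4138 in anN1 and 3918 and 7150 in wild-type. Both emN1 arrays were high, and the second wild-type array lay between them and the other controls. Expression rose 3.35-fold (log2 1.75, SE 0.29; limma adjusted p = 0.0155). Against anN1 alone it was also higher (log2 1.97, SE 0.29; limma adjusted p = 0.0235). The difference from wild-type alone, 1.42 (SE 0.33), did not pass (limma adjusted p = 0.0951).

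Sparc encodes a collagen-binding matricellular protein also called osteonectin. Its brighter probe set had 14636 and 15952 signal units in emN1, 9936 and 9290 in anN1, and 7926 and 11657 in wild-type. No control reached the emN1 values, yet the difference of 0.67 (SE 0.16) fell short of the threshold (limma adjusted p = 0.0560). The next probe set had 7268 and 8525 in emN1, 4022 and 4614 in anN1, and 3641 and 4413 in wild-type. Here the controls lay closer together, and signal rose 1.93-fold (log2 0.95, SE 0.14; limma adjusted p = 0.00877). This probe set passed against anN1 alone (log2 0.87, SE 0.14; limma adjusted p = 0.0336) and against wild-type alone (log2 1.08, SE 0.16; limma adjusted p = 0.0210). Its remaining, dim probe set was not tested and read 35.2 to 173 over the 6 arrays, with the groups overlapping.

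Fn1 encodes fibronectin, the fibril-forming glycoprotein that integrins bind. Signal was 10285 and 6817 in emN1, 5675 and 4021 in anN1, and 3515 and 3611 in wild-type. Array set 1 was the brighter in both groups it held, and within each set emN1 was above its controls. Fn1 rose 1.82-fold (log2 0.87, SE 0.11; limma adjusted p = 0.00660), and it passed against anN1 (log2 0.81, SE 0.13; limma adjusted p = 0.0255) and wild-type (log2 0.96, SE 0.14; limma adjusted p = 0.0197) alone. Its second probe set was dim, at 45.1 and 210 in emN1, 200 and 181 in anN1, and 296 and 72.7 in wild-type. Those values overlap, and the difference of -0.50 (SE 0.67) did not pass (limma adjusted p = 0.786).

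Tnc encodes tenascin-C, a matricellular protein of remodelling tissue that modulates adhesion to fibronectin. Its brighter probe set had 538 and 728 signal units in emN1, 349 and 354 in anN1, and 606 and 502 in wild-type. Both emN1 arrays were above both anN1 arrays but overlapped with wild-type. None of its differences passed, at 0.60 (SE 0.29) from all controls (limma adjusted p = 0.350), 0.80 (SE 0.30) from anN1 and 0.29 (SE 0.34) from wild-type. The 95% interval of the first, -0.06 to 1.25, covers both no change and an increase as large as in several other genes of the group. The second Tnc probe set was under background on every array, at 85.8 and 93.2 in emN1, 7.36 and 11.7 in anN1, and 38.9 and 4.43 in wild-type.

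Among the proteoglycans, Lum and Dcn gave different pictures. Both encode small leucine-rich proteoglycans of collagen fibrils, lumican and decorin, and they are neighbours on mouse chromosome 10. Lum had 1359 and 1349 signal units in emN1, 676 and 428 in anN1, and 425 and 405 in wild-type. Values of emN1 were nearly equal and well above every control, of which the anN1 array of the first set was the highest. Lum rose 2.61-fold (log2 1.38, SE 0.23; limma adjusted p = 0.0168). Against anN1 alone (log2 1.30, SE 0.28; limma adjusted p = 0.0744) and wild-type alone (log2 1.5, SE 0.31; limma adjusted p = 0.0658) it did not pass.

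The brighter Dcn probe set had 41026 and 33020 signal units in emN1, 36993 and 33931 in anN1, and 30847 and 42673 in wild-type. Groups overlapped throughout, and the highest and the lowest arrays were both wild-type. The difference was -0.00 (SE 0.14; limma adjusted p = 0.996), with a 95% interval of -0.31 to 0.31 on the log2 scale. The second probe set, at 346 and 397 in emN1, 739 and 259 in anN1, and 526 and 291 in wild-type, overlapped too (log2 -0.30, SE 0.40; limma adjusted p = 0.791). Set against Dcn on the same array, Lum was 1.29 and 1.60 log2 units above the control mean in emN1, and between -0.47 and 0.45 from it in the 4 controls. That contrast of the pair was chosen after the values were seen and was not tested.

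Lox encodes lysyl oxidase, the secreted copper enzyme that starts the cross-linking of collagen and elastin. Its brightest probe set had 1330 and 1492 signal units in emN1, 500 and 701 in anN1, and 452 and 499 in wild-type. All controls lay under the lower emN1 array by a wide margin. Lox rose 2.66-fold (log2 1.41, SE 0.24; limma adjusted p = 0.0178). It passed against wild-type alone (log2 1.69, SE 0.28; limma adjusted p = 0.0312) and not against anN1 alone (log2 1.22, SE 0.25; limma adjusted p = 0.0671). The second Lox probe set had 309 and 398 in emN1, 19.5 and 196 in anN1, and 80.1 and 243 in wild-type. It did not overlap between emN1 and controls either, but 2 control values were under background and the difference of 2.00 (SE 0.59) did not pass (limma adjusted p = 0.124). The dimmest was not tested, being under background on 5 of 6 arrays, and read 191 and 66.0 in emN1, 2.70 and 58.1 in anN1, and 49.4 and 63.0 in wild-type.

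Loxl1 encodes the family member that is needed for elastic fibres to form. Signal was 2904 and 1559 in emN1, 976 and 813 in anN1, and 603 and 750 in wild-type. Within emN1 the array of the first set was the higher, and both were above every control. Loxl1 rose 2.44-fold (log2 1.28, SE 0.21; limma adjusted p = 0.0147). Against anN1 alone (limma adjusted p = 0.0634) and wild-type alone (limma adjusted p = 0.0670) the differences were 1.24 (SE 0.25) and 1.35 (SE 0.28). Its other probe set was under background on all 6 arrays, at 58.8 and 79.3 in emN1, 10.5 and 11.7 in anN1, and 12.9 and 24.4 in wild-type.

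Loxl2, an enzyme that acts on basement membrane collagen, is named only together with Gm21451 on its probe sets, so no value is assigned to it. The brighter of the 2 shared probe sets had 3459 and 2744 signal units in emN1, 2142 and 1861 in anN1, and 1746 and 2421 in wild-type. In the other it was 233 and 152 in emN1, 110 and 217 in anN1, and 282 and 511 in wild-type. Neither passed between emN1 and controls, at 0.55 (SE 0.17; limma adjusted p = 0.149) and -0.20 (SE 0.53; limma adjusted p = 0.910).

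Thy1 encodes a glycolipid-anchored glycoprotein of the fibroblast surface that mouse T cells also carry. It had 2917 and 3096 signal units in emN1, 864 and 1182 in anN1, and 1177 and 1219 in wild-type. Its emN1 arrays were close together, and so were 3 of the 4 controls, with the anN1 array of the first set lowest. Thy1 rose 2.85-fold (log2 1.51, SE 0.16; limma adjusted p = 0.00333), the smallest adjusted p of the group. It also passed against anN1 (log2 1.56, SE 0.19; limma adjusted p = 0.0131) and against wild-type (log2 1.45, SE 0.22; limma adjusted p = 0.0208) alone.

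**Figure D2:**
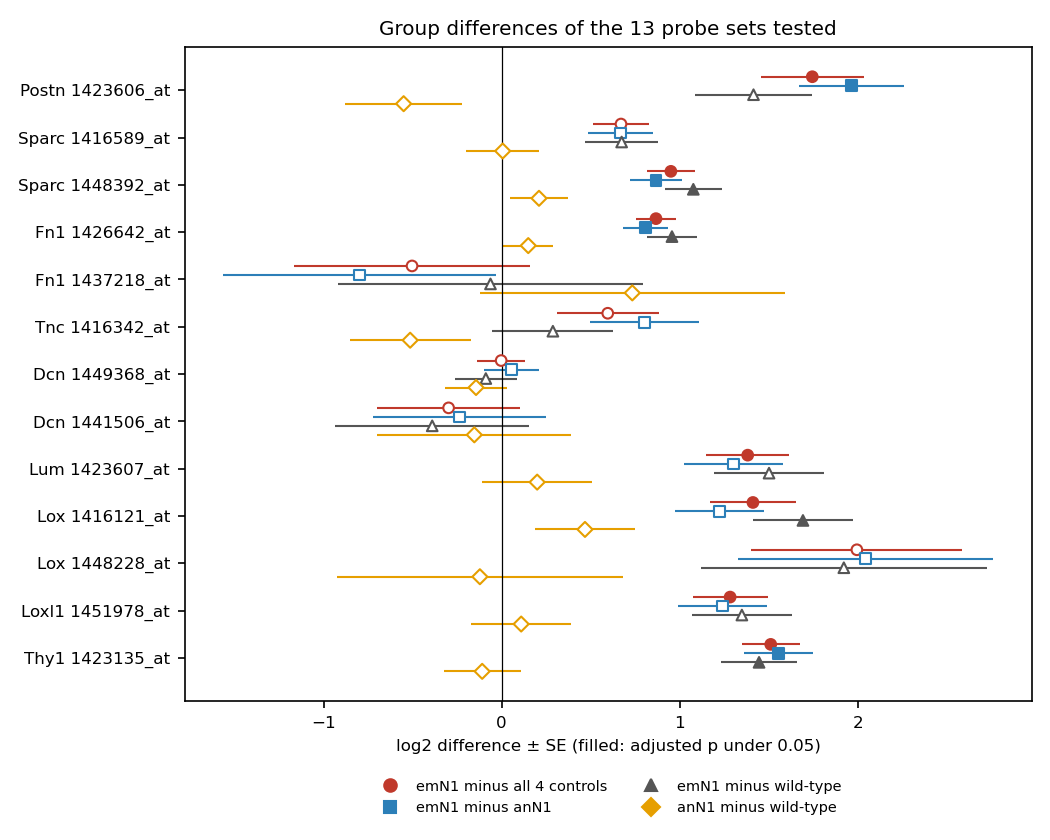
Log2 differences with their SE for the 13 probe sets tested, in 4 comparisons: emN1 minus all 4 controls, emN1 minus anN1, emN1 minus wild-type and anN1 minus wild-type. Filled symbols passed limma with an adjusted p under 0.05. The emN1 differences of Postn, Thy1, Lum, Lox and Loxl1 lie above 1, those of Dcn lie near or below 0, and no anN1 minus wild-type symbol is filled.

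Taken against each control alone, 4 of the 13 probe sets rose relative to anN1 and 4 relative to wild-type, and none fell. Past the threshold against at least 1 of these controls were 5 probe sets, and 8 passed against neither. Among all probe sets tested 2.02% passed against anN1 (1.35% higher, 0.662% lower) and 2.16% against wild-type (1.53% higher, 0.629% lower). These comparisons share the emN1 arrays. Both wild-type arrays were in the second array set, so the term for array set rests on emN1 and anN1. The differences from wild-type therefore also depend on the anN1 arrays, and anN1 minus wild-type also depends on the emN1 arrays. The probe sets that passed were those of Postn, Sparc, Fn1 and Thy1 against anN1, and those of Sparc, Fn1, Lox and Thy1 against wild-type. Against anN1, 8 passed without wild-type replicate 1 (4.67% of all probe sets) and 8 without wild-type replicate 2 (4.40% of all). With any 1 emN1 or anN1 array left out none passed in either comparison, beside 0 of all probe sets against anN1 and at most 0.241% against wild-type.

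Between the controls, anN1 minus wild-type, none of the 13 probe sets passed limma and none had an unadjusted p under 0.05, beside 0.074% of all probe sets that passed (0.0518% higher, 0.0222% lower). The median of the 9 brightest probe sets was 0.01 log2 units, with 5 of 9 above 0. Postn differed by -0.55 (SE 0.33), Tnc by -0.51 (SE 0.34) and Lox by 0.47 (SE 0.28). With 2 arrays a group such differences stay within the error, so that equal levels in the controls are not shown.

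The genes of the group varied together across the 6 arrays, apart from Dcn and Tnc. Correlations among the 36 pairs of the 9 brightest probe sets had a median of 0.80 and ranged from -0.22 to 0.98. The correlation of a gene with the mean of the other 8 was 0.87 to 0.94 for 7 genes, 0.48 for Tnc and 0.24 for Dcn. These coefficients describe 6 arrays that share groups and sets, and much of the common variation is the difference between emN1 and controls.

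By the rule used here, the 6 genes most like the mean profile of the group over the 6 arrays, with Pearson correlations of 0.992 to 0.996, were Krt14, Col6a3, Masp1, Cav1, Vim and Timp1. Krt14 encodes a keratin of basal keratinocytes and had 11389 and 10033 signal units in emN1, 4992 and 4760 in anN1, and 4233 and 4740 in wild-type. Col6a3, a chain of collagen VI, had 15126 and 12996 in emN1, 6136 and 5646 in anN1, and 4538 and 6161 in wild-type. Since the mean profile is high in both emN1 arrays, the choice of these genes by likeness fixes that they are high there too, and no test is given. Their log2 differences ran from 0.79 in Vim, the intermediate filament of mesenchymal cells, to 2.01 in Timp1, an inhibitor of matrix metalloproteinases.

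Other matrix genes were measured to set the group in context. Of 59 with a probe set bright enough to be tested, in 5 lists, 18 rose, none fell and 41 did not pass, with a median of 0.58 log2 units. The lists were matricellular proteins, proteoglycans, elastic fibre and other glycoproteins, collagen-modifying enzymes and matrix receptors. Among all 12611 genes 3.58% were higher and 1.83% lower. In place of 18, the genes that were higher numbered 1 with emN1 replicate 1 left out, 0 with emN1 replicate 2 left out and 2 with anN1 replicate 1 left out. They numbered 7 in a fit that had no array set term and 0 in one that had no intensity trend. The shares of all probe sets that passed under these settings are given above with the 13 probe sets. Without anN1 replicate 2 they numbered 13 (2.73% of all probe sets passed). Without wild-type replicate 1 they numbered 12 (2.69% of all) and without wild-type replicate 2 they numbered 17 (4.07% of all).

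Matricellular proteins gave the highest count, with 7 of 13 higher, 6 not passing and a median of 1.35. Smoc1, a SPARC relative of basement membranes, had 2446 and 1414 signal units in emN1, 421 and 403 in anN1, and 312 and 316 in wild-type (log2 2.19, SE 0.24; limma adjusted p = 0.00360). Thbs1, thrombospondin 1, an activator of latent TGF-beta, had 1102 and 3768 in emN1, 368 and 628 in anN1, and 1006 and 656 in wild-type (log2 2.00, SE 0.28; limma adjusted p = 0.00778). The first emN1 array exceeded one wild-type array of Thbs1 by little. Thbs2 (log2 1.85, SE 0.31) and Tnxb, a tenascin of loose connective tissue (log2 1.83, SE 0.31), also rose.

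Among 10 proteoglycans 4 rose and 6 did not pass, with a median of 0.76. Acan, the large proteoglycan aggrecan, rose by 1.73 (SE 0.27; limma adjusted p = 0.0127). Bgn, biglycan, the nearest relative of decorin, had 10371 and 19722 signal units in emN1, 3105 and 7069 in anN1, and 5861 and 7255 in wild-type, and rose by 1.63 (SE 0.13; limma adjusted p = 0.00154). Prelp, another leucine-rich proteoglycan, rose by 1.21 (SE 0.16), and Vcan, versican of the dermal papilla, by 0.77 (SE 0.17; limma adjusted p = 0.0478). The 3 that lay at or below 0 were Ogn, Podn and Hspg2, none past the test and all named after their values were seen.

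In the list of elastic fibre and other glycoproteins, 4 of 14 rose and 10 did not pass, with a median of 0.47. They were Efemp1 (log2 1.64, SE 0.30), a fibulin, the basement membrane nidogens Nid2 (log2 1.52, SE 0.30) and Nid1 (log2 0.55, SE 0.11), and the microfibril protein gene Mfap5 (log2 1.19, SE 0.21). Of 11 collagen-modifying enzymes and helpers, 2 rose and 9 did not pass, with a median of 0.36. Bmp1, the protease that trims procollagens and activates lysyl oxidase, rose by 1.07 (SE 0.15; limma adjusted p = 0.00818). Pcolce, which enhances that protease, rose by 0.70 (SE 0.15; limma adjusted p = 0.0398). The remaining lysyl oxidase relatives Loxl3 (log2 -0.66, SE 0.51) and Loxl4 (log2 0.36, SE 0.39) did not pass. They too were picked once their values were known. Of 11 receptors for the matrix, Ddr2, a collagen receptor kinase of fibroblasts, rose by 1.58 (SE 0.23; limma adjusted p = 0.00950), and 10 did not pass, with a median of 0.19.

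**Figure D3:**
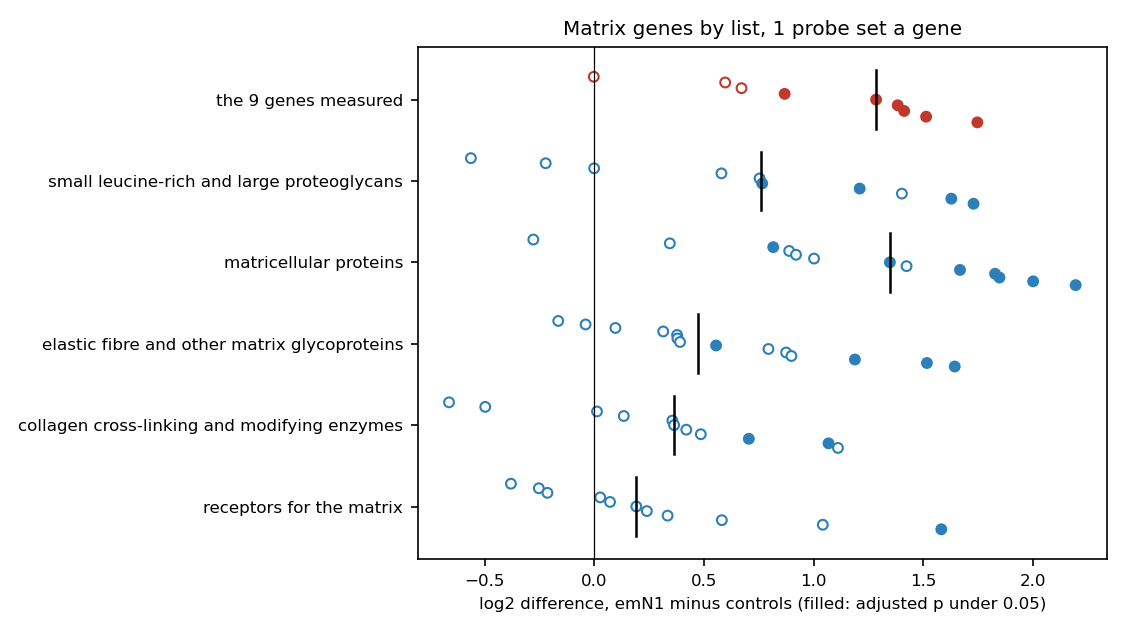
Log2 difference, emN1 minus controls, of each matrix gene by list, 1 probe set a gene, with the list median as a bar. Filled points passed limma with an adjusted p under 0.05. The medians are 1.28 for the 9 genes of the group, 1.35 for matricellular proteins and 0.19 for receptors, and no filled point lies below 0.

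Markers of several cell types moved with these genes. Among all 12611 genes, 3.58% were higher and 1.83% lower in emN1 than in controls, which is the share to set beside the counts of each list. Of 13 fibroblast markers 5 rose (Pdgfrb, Col1a2, Col3a1, Col6a2 and Mfap5), 1 fell (Fap, a fibroblast surface protease, by 1.31 with SE 0.24) and 7 did not pass. Their summed signal was 78248 to 90639 in emN1 and 37152 to 51332 in the controls, with every marker above background on all arrays. Most of this list are collagens or other matrix genes, and Mfap5 is also counted above, so the list is not separate from the matrix genes. Col1a2 and Col3a1 were its brightest, with means of 29280 and 27628 in emN1, and 10979 and 14926 in the controls. Outside the matrix genes, Pdgfrb rose, Fap fell, and Pdgfra and Twist2 did not pass. Of 4 measured markers of dermal sheath and smooth muscle 3 rose (Tagln, Cspg4 and Acta2), with sums of 39779 to 40579 in emN1 and 15447 to 22461 in the controls. Of 8 macrophage and immune markers 3 rose (Csf1r, Fcer1g and Lyz2), with sums of 5544 to 5769 in emN1 and 1422 to 1558 in the controls, where up to 3 of the 8 were under background on an array. Of 7 basal and outer sheath keratinocyte markers 4 rose (Krt15, Krt14, Col17a1 and Krt5), with sums of 133077 to 148478 in emN1 and 74771 to 91555 in the controls.

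In the remaining lists the sums overlapped with the controls or were lower in emN1. Of 7 dermal papilla markers Vcan rose, Rspo3 fell by 1.30 (SE 0.20) and 5 did not pass, with sums of 23291 to 24430 in emN1 and 21690 to 27629 in the controls. Vcan, also counted among the proteoglycans, was near the threshold (limma adjusted p = 0.0478). Of the 12 alternatives run, it passed only with quantile normalization and with the background floor. Of 7 melanocyte markers 6 fell and Mitf did not pass, with sums of 71216 to 86790 in emN1 and 161309 to 244029 in the controls. None of 9 bulb keratinocyte, 3 adipocyte, 3 endothelial or 2 skeletal muscle markers passed, and their sums overlapped between emN1 and controls. Only 3 of 6 listed adipocyte, 3 of 7 endothelial and 2 of 6 skeletal muscle markers were bright enough to be tested. The adipocyte median was 0.66 log2 units, so the lack of calls in these short lists does not show equal levels. Over all marker lists 16 genes rose and 8 fell, against 6 and 4 without emN1 replicate 1, 0 and 0 without emN1 replicate 2, 7 and 4 without anN1 replicate 1, 9 and 5 without the array set term, and 0 and 0 without the intensity trend. In the fit to all arrays 63 marker genes were tested. The shares of all probe sets that passed under the other settings are given above with the 13 probe sets. The part of any of these cell types in the differences of the matrix genes was not tested.

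**Figure D4:**
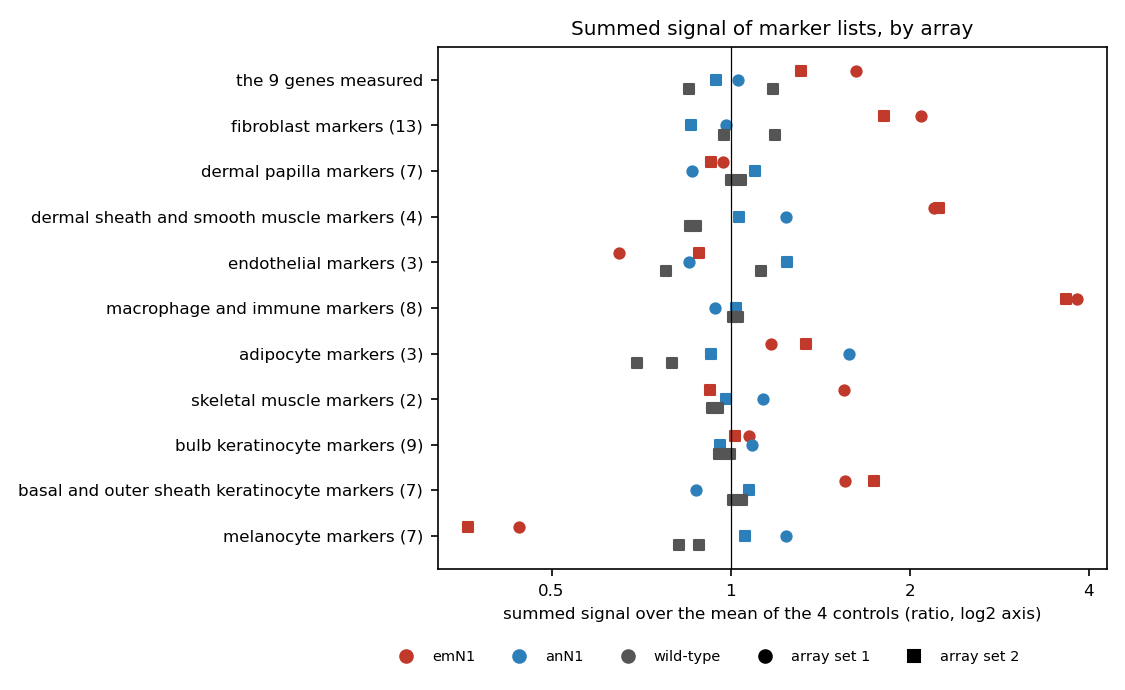
Summed signal of the 9 genes and each marker list on each array, divided by the mean of the 4 controls, on a log2 axis. Circles are array set 1 and squares array set 2, and the number of genes stands in brackets. Sums of the 9 genes and of macrophage, dermal sheath, fibroblast and basal keratinocyte markers are higher in both emN1 arrays than in any control. Melanocyte sums are lower, and the others overlap.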

How the data were processed

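Intensities per probe set were deposited by the authors on a linear scale, made with MAS5 per the submitters' processing notes (no version or settings in the sources used here). Their trimmed mean was 1500 on each array, as computed from the files, and no rescaling was applied. Detection calls were not used. Of 45101 probe sets, 64 controls were left out. Names came from the platform annotation (34958 probe sets with 1 symbol, 932 with several, 9211 with none); 34754 matched GRCm38.p6 RefSeq by gene identifier and 0 changed, and 6 list symbols were updated through synonyms.

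A pseudocount of 17.8, the signals' percentile 10, was added before taking log2, so that differences of dim genes are understated. The brightest 60% of probe sets by mean (27022) were tested with limma 3.58.1 in R 4.3.3 (lmFit, eBayes with intensity trend, two-sided, Benjamini-Hochberg over all 27022). One fit set emN1 against 4 controls, another had 3 groups, both with a term for array set. The design text gives emN1 and anN1 arrays of the same replicate number the same set, which pairs them, and the replicate 1 minus 2 differences of these groups had a correlation of 0.38 over the 27022 probe sets. The replicates are called biological, and whether they are separate animals is not given in the sources used here, so the spread behind the p-values is that of these samples and may be technical. A gene is represented by its tested probe set with the highest mean.

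The genes, lists and tests were chosen with earlier results of these data known. Named besides the group were Notch1, up to 4 genes per matrix list past the threshold (otherwise the 2 with the smallest p), and the 6 most alike; markers are given as counts, with those that passed named. Simulated data with known changes were used to test the limma code, and 12 alternatives were run: another pseudocount, no filter, no trend, no set term, quantile normalization, a background floor and each array left out. Figures were drawn with matplotlib 3.10.9.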

Additional observations from a re-analysis of the deposited data

Results flagged for a closer look

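Among the 4 control arrays, the gap between the farthest array and its nearest neighbour, divided by their range on the log2 scale, was above Dixon's 95% critical value for 3 of 13 probe sets. It was 0.852 for Postn, where wild-type replicate 2 was high, 0.893 for Lum, where anN1 replicate 1 was high, and 0.899 for Thy1, where anN1 replicate 1 was low. The array anN1 replicate 1 is the only control in array set 1, which had the higher actin ratios. Its distance from the other controls cannot be told apart from a difference between sets. Chance passes Dixon's limit in about 1 in 20 groups of arrays that are alike in design. The 4 controls differ in genotype and array set, so that rate need not hold here. The share of all probe sets past the limit was not computed. Between emN1 and anN1, 3 probe sets differed in opposite directions in the array sets, with 1 array a group in each set. These differences between sets were not tested, and the share of all probe sets with opposite directions was not computed. The values in the first and second set were -1.79 and 0.20 log2 units for the dim Fn1 probe set, 0.15 and -0.04 for the brighter Dcn probe set, and -1.06 and 0.58 for the dimmer one.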

How the results depend on the processing

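The number of the 13 probe sets past the threshold between emN1 and controls, 7 as reported, was 7 with a pseudocount of 1 or without the filter and 8 with quantile normalization or the background floor. It was 0 without the intensity trend (9 at an unadjusted p under 0.05; 0 of all 27022 passed, 4044 unadjusted) and 2 with no replicate block, that is without the set term that pairs emN1 with anN1 (286 of all passed, against 1020). Leaving out 1 array gave 0 to 8, the lowest without either emN1 array and 1 without anN1 replicate 1. For emN1 minus anN1 (4 as reported) the count was 0 without the trend, 0 with no replicate block, and 0 to 8 with 1 array left out; for emN1 minus wild-type (also 4) it was 0, 0 and 0 to 8. For anN1 minus wild-type it was 0 under every alternative run. The 7 differences that passed between emN1 and controls kept their sign under all 12 alternatives, as did those of Sparc, Lox and Tnc that did not pass. The brighter Dcn difference of -0.00 turned to 0.0378 with no replicate block and 0.0593 with quantile normalization, and ranged from -0.10 to 0.15 with 1 array left out. The dimmer Dcn probe set ranged from -1.06 to 0.21 and the dim Fn1 probe set from -1.79 to 0.36 with 1 array left out. Where an arm keeps 1 array, its spread is assumed to be that of the others. Signals under 112 cannot be told from background.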
